A study of Mus musculus with 4 samples.

Results

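Cytosolic ribosomal protein genes encode the proteins that join ribosomal RNA into the small (Rps) and large (Rpl) subunits of the ribosome, the particle that makes all cellular protein. Many of their mRNAs start with a tract of pyrimidines, the 5′ terminal oligopyrimidine (TOP) tract, through which growth signals control their translation as a group. Because each ribosome holds a single copy of nearly every protein, the genes are usually read as a family that moves together. The family was taken here as every measured gene whose symbol starts with Rps or Rpl and a number, without pseudogene symbols (-ps) and without the Rps6k kinases, which gave 82 of 32285 genes. Of these, 33 carried an Rps symbol and 49 an Rpl symbol. The 73 core members encode the standard ribosome, and 9 are paralogs or stand outside the core set (Rps27l, Rps27rt, Rpl22l1, Rpl39l, Rpl3l, Rpl10l, Rpl7l1, Rpl36al and Rps19bp1). Another 10 Rps6k symbols and 5 -ps symbols were left out, and 7 ribosome proteins that are named otherwise (Rplp0, Rplp1 and Rpsa among them) were read as a separate list.

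The study measured single-cell RNA from mouse pancreatic ductal adenocarcinoma, with 4 libraries that each pooled tumour from 3 animals. The control group received PBS. The PH group received paricalcitol, a vitamin D receptor agonist, with hydroxychloroquine, which blocks lysosomal breakdown. The G group received gemcitabine, a nucleoside analogue used as chemotherapy, and the GPH group is named for gemcitabine, paricalcitol and hydroxychloroquine together, with a gemcitabine dose of 60 mg/kg. The label of that group breaks off after the gemcitabine dose, so the other 2 agents come from its title. The series asks whether paricalcitol and hydroxychloroquine sensitise the tumour to gemcitabine. Mouse strain, age, sex and tumour model are not in the sources used here. Each group is 1 library of pooled animals, so no difference between groups has a replicate check, no p-value is given, and treatment, animals and library preparation cannot be told apart.

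The libraries held 7918 to 18589 cell barcodes and 143298547 to 190110092 unique molecular identifiers (UMIs, each counting 1 captured RNA molecule), and 4579 to 16033 cells passed the filters. GPH stood apart with 41.0% of its barcodes over 20% mitochondrial UMIs, against 12.7% to 15.6% in the others. Genes of the Y chromosome summed to 0.127 and 0.450 CPM (UMIs per 1000000 non-mitochondrial UMIs of the same cells) in vimentin-high cells of control and PH, and to 10.6 and 14.3 in G and GPH, so the tumours of the libraries also differed in this respect. The libraries shared at most 79 barcodes per pair, up to 0.594% of the smaller one. Classes were gated per cell from marker genes, and the median cell of each class had none of the marker lists of other classes, except for collagen genes in vimentin-high cells (196 to 515 CPM) and in keratin-high cells of control and PH (137 and 128 CPM). Of the vimentin-high cells 1937, 2477, 574 and 369 lay within 1.5-fold above the cut for Vim in control, PH, G and GPH, so this class is a range and not a cell type. The cells gated keratin-high in control and PH held Vim at 4337 and 5392 CPM and no Tff1, while those in G and GPH had Tff1 at 3251 and 2484, so keratin-high cells were compared between G and GPH alone. No deposited cell annotation was used.

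Start regions are shown for several members that the results turn on, so that the TOP tract can be read beside their values. Each line gives 30 bases of the RefSeq annotation of GRCm38.p6, 10 before the annotated start and 20 from it, 5′ to 3′ on the gene's strand, and capitals mark the longest tract that begins within 10 bases of the start, a tract being a C followed by at least 4 bases that are each C or T (sense strand only). Shorter tracts in the same window are left in lower case. No window was found for Rpl23a, and those of Rpl5 and Rpl37, not shown, held no tract. The tract marked for Rps27l ends before the annotated start, and a further Rps27l window, not shown, held no tract.
Rps2, chr17:24720053-24720082, plus strand: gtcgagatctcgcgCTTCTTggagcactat
Rps28, chr17:33824543-33824572, minus strand: cgcgtgcggtctcgcgagagcgaaagtgag
Rps25, chr9:44407704-44407733, plus strand: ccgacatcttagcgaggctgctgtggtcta
Rps15, chr10:80292421-80292450, plus strand: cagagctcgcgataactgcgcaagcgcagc
Rpl12, chr2:32961702-32961731, plus strand: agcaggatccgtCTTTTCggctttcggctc
Rpl13a, chr7:45128726-45128755, minus strand: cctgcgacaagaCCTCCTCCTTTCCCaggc
Rpl22l1, chr3:28805498-28805527, plus strand: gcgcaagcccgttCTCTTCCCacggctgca
Rps27, chr3:90213629-90213658, minus strand: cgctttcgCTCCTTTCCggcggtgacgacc
Rps27l, chr9:66946076-66946105, plus strand: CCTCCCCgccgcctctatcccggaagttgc
Start windows were found for 63 of the 82 members, 75 windows in all. A tract within 10 bases was present in 41 of them (54.7%), against 30.7% of 32851 windows over all genes. With the tract starting exactly on the annotated first base the shares were 17.3% and 2.51%. Members with and without a tract occur both among those that were higher in the treated libraries (Rpl12 and Rpl13a against Rps25 and Rps15) and among those that were lower (Rps2 against Rps28). An annotated start can lie a few bases from the one a cell uses, so a window without the letters says nothing of the mRNA.

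The family was a large part of all RNA molecules counted. Over all kept cells its share of non-mitochondrial UMIs was 31.2% (control), 33.4% (PH), 32.2% (G) and 26.3% (GPH). By gene, 72 members averaged at least 1000 CPM over the 4 libraries, 7 lay from 20 to under 1000, and 3 paralogs (Rpl39l, Rpl3l and Rpl10l) lay under 20, with 97, 177 and 5 UMIs in all. The 6 highest were Rps28, Rpl37, Rpl39, Rpl23, Rps21 and Rps29, which together held 17.2% of the family's UMIs. These levels are molecules caught at the 3′ end and were not compared between genes beyond this order. The 79 members other than the 3 rarest were measured in every comparison.

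**Figure D1:**
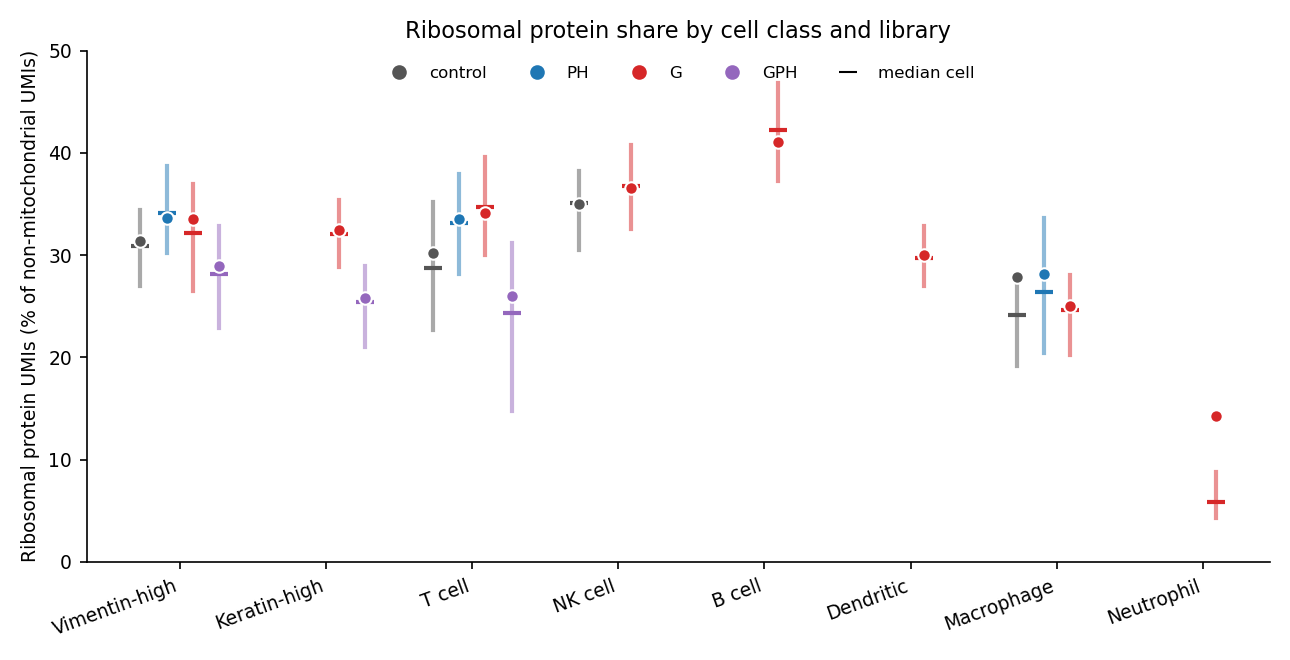
Share of non-mitochondrial UMIs from ribosomal protein genes (vertical axis, percent) by gated cell class (horizontal axis) and library (colour). Dots are the share of the summed UMIs, dashes the median cell and bars the middle 50% of cells. B cells of G lie highest at 41.1%, neutrophils of G lowest at 14.3%, and GPH lies below G in vimentin-high and keratin-high cells.

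Levels of the family differed more between cell classes than between libraries. Within the G library, where 8 classes were large enough, B cells had the highest share at 41.1%, followed by NK cells at 36.6% and T cells at 34.2%. Vimentin-high cells had 33.5% and keratin-high cells 32.5%. Dendritic cells had 30.02% and macrophages 25.0%. Neutrophils had 14.3% of summed UMIs, but the median neutrophil had 5.87%, and 603 of 755 neutrophils (79.9%) lay under 10%. When each cell was thinned to 1000 UMIs, 73.9% of the 402 neutrophils deep enough still lay under 10%. The order B, NK and T, then dendritic cells, macrophages and neutrophils spans more than the differences between libraries within a class given below. The 95% counting interval (exact binomial, counting error only) was 40.9% to 41.2% for B cells and 14.3% to 14.4% for neutrophils. RNA free in the suspension was not measured.

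The neutrophil difference ran through almost the whole family. Against T cells of the same library, 76 of 79 members were at least 1.5-fold lower (45.3% of all measured genes were), and 0 were higher (19.6%), with a family median log2 ratio of -1.30 against -0.47 over all genes. Rps27, Rps27l and Rpl7l1 were the exceptions. Rps27, a small-subunit protein with a zinc finger, had 5424 CPM in neutrophils and 7937 in T cells. Its paralog Rps27l, a target of the p53 tumour suppressor, had 402 and 543 CPM. Rps15a lay farthest below the family, at 2534 against 10200 CPM, a log2 ratio of -2.01. Neutrophils were shallow, with a median of 1028 UMIs against 3863 in T cells.

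B cells lay above T cells of the same library in most members, with few past 1.5-fold. Of 79 members 63 were above 0 and 16 below. The family median log2 ratio was 0.21, against -0.31 over all genes. At least 1.5-fold higher were 5 members (12% of all measured genes), and 1 was lower (36.5%). Both counts are smaller shares than those of all genes. Rps27 had 16457 CPM in the 116 B cells of G and 7937 in T cells, a log2 ratio of 1.05. Its retrogene Rps27rt moved the same way, with 118 against 35.8 CPM. Of the 50-base stretches at the 3′ end, 91.1% for Rps27rt and 98.6% for Rps27 also occur in other genes. Reads that fit several counted genes can be lost in counting. The search covered all annotated genes, counted or not, so these percentages do not measure the loss. The counts of both genes remain uncertain to an extent that was not measured. Rps27l ran opposite, with 239 CPM in B cells and 543 in T cells. Rps27 and Rps27l, which encode very similar proteins, thus lay on opposite sides of the family in these cells.

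Some members differed in the same direction between a pair of cell classes in every library where both could be read. Rps2, a protein of the mRNA entry side of the small subunit, was lower in T cells than in vimentin-high cells in all 3 libraries with enough of both. It had 4218 and 7162 CPM in control, 2906 and 4529 in PH, and 3068 and 5166 in G. The low level was not particular to T cells. In G, Rps2 had 2881 CPM in NK cells, 2682 in B cells, 2016 in macrophages and 1973 in dendritic cells. Rps27l was higher in macrophages than in T cells, with 656 and 318 CPM in control, 615 and 404 in PH, and 782 and 543 in G. Dendritic cells of G had more, at 1141 CPM, so a high level was not particular to macrophages. Rps19bp1, which binds Rps19 and is not itself part of the ribosome, was also at least 0.60 log2 units above the family in macrophages against T cells in these 3 libraries. These comparisons lie within a library, so the differences in preparation between libraries do not enter them.

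Across treatments the family share was compared in vimentin-high cells, the largest class over the 4 libraries together, and was lowest in GPH. The shares were 31.4%, 33.6%, 33.5% and 28.9% across control, PH, G and GPH (7965, 12078, 2000 and 1532 cells). PH was 2.23 points above control and G 2.13 points above it, while GPH was 4.59 points below G and 4.69 below PH. The medians of single cells, 30.9%, 34.2%, 32.2% and 28.2%, kept this order. PH and G were above control in each of 5 ranges of cell depth, a split added after the data were seen. GPH was below G and PH in the 4 ranges from 2000 UMIs up, while under 2000 UMIs it had 29.3% and G 27.8%. Cells with the fibroblast genes Dcn or Dpt at 100 CPM were 990 of 1532 in GPH and 631 of 2000 in G. Their shares were 31.1%, 34.3%, 33.1% and 27.9% across control, PH, G and GPH, and those of the other vimentin-high cells 31.6%, 33.3%, 33.7% and 30.6%, so GPH was lowest on both sides of the split.

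Keratin-high cells gave the widest gap. Their share was 32.5% in G (1309 cells) and 25.9% in GPH (2154), a difference of -6.64 points. The gap was present in cells with Tff1 at 1000 CPM or more, at 31.8% and 24.3%, and in those below, at 32.8% and 26.6%. It was also present in cycling cells, at 31.2% and 26.8%, and in the other cells, at 32.9% and 25.7%. These splits were chosen after the data were seen. The 2 libraries differed in depth, with medians of 28557 and 40876 UMIs per keratin-high cell, and in cells of 3000 to 10000 UMIs the difference was -10.4 points, over 94 and 88 cells.

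**Figure D2:**
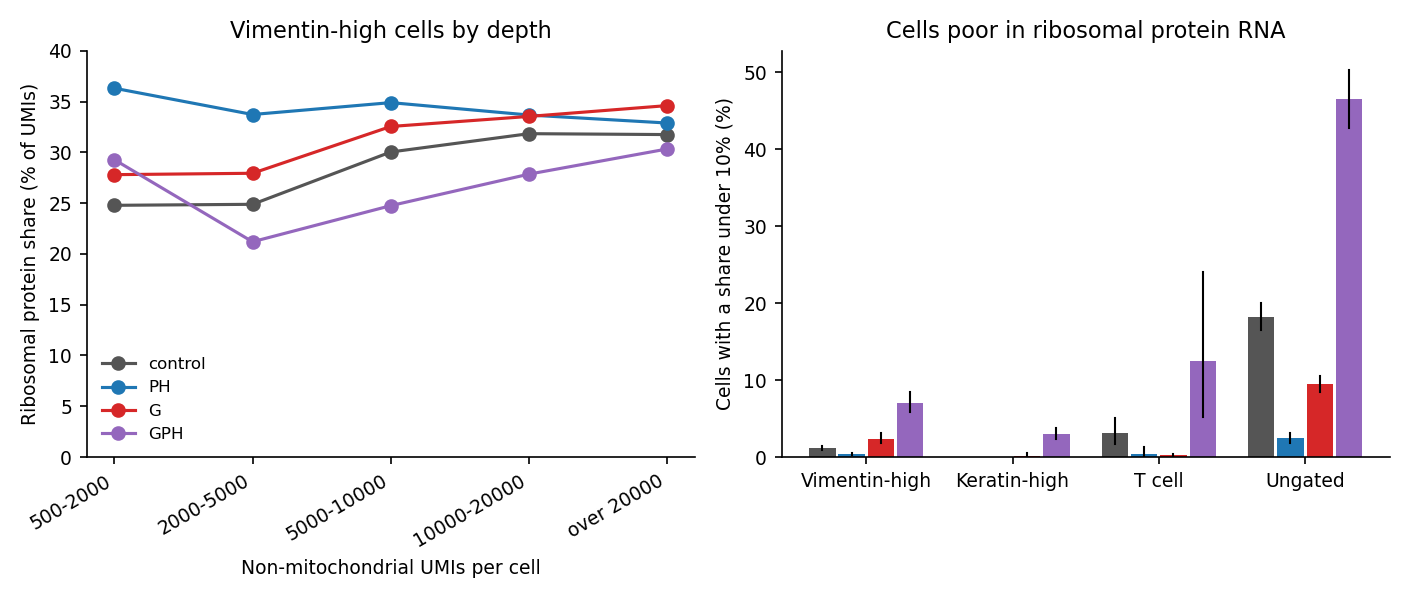
Left, ribosomal protein share (percent of UMIs) in vimentin-high cells against the number of non-mitochondrial UMIs per cell (binned), 1 line per library. Right, percent of cells with a share under 10% by class and library, with 95% binomial intervals as black lines. GPH is lowest from 2000 UMIs up, and 46.5% of its ungated cells lie under 10%.

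Cells with very little ribosomal protein RNA were most frequent in GPH. Among vimentin-high cells 1.17% lay under a share of 10%, 0.397%, 2.40% and 7.05% across control, PH, G and GPH. With each cell thinned to 1000 UMIs, leaving out 113, 177, 36 and 33 shallower cells, these became 1.16%, 0.336%, 1.78% and 7.005%. Among keratin-high cells it was 0.153% in G and 3.02% in GPH. Among cells that met no gate it was 18.2%, 2.43%, 9.47% and 46.5% in control, PH, G and GPH, or 10.6%, 0.915%, 3.602% and 48.0% after thinning, without 366, 471, 455 and 113 shallower cells. In the ungated cells of GPH those under 10% had Malat1, a nuclear RNA, at 15.5% of UMIs and mitochondrial genes at 13.8%, against 3.90% and 6.58% in the rest. Barcodes over 20% mitochondrial UMIs also had low shares, 12.2%, 20.5%, 22.4% and 10.1% in vimentin-high cells of control, PH, G and GPH. They were left out of the other family shares, except those given with no mitochondrial limit. Mitochondrial share and Malat1 were likewise higher in the vimentin-high cells under 10% than in the rest in each library. Neutrophils of G ran the other way for mitochondrial genes, at 3.46% in cells under 10% and 5.09% in the rest. In vimentin-high cells with at most 10% mitochondrial UMIs GPH was 4.45 points below G, and without Malat1, Neat1 and haemoglobin genes in the denominator 3.73 points.

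Single members followed the family in GPH with few exceptions. In vimentin-high cells against G, 0 of 79 members were 1.5-fold higher (23.4% of all measured genes) and 5 were lower (7.41%), with a family median log2 ratio of -0.24 and 65 members below 0. The median of all 4765 measured genes was 0.23, so measured against that median the family lay 0.47 lower and 19 members were 1.5-fold lower (14% of all measured genes). Against PH, 0 members were higher (16.5%) and 4 lower (7.31%), with a family median of -0.26 against 0.10 over all genes and 13 members lower after centring (10.8%). These comparisons share the GPH library. The counts depended on depth. In cells of 3000 to 10000 UMIs the members past 1.5-fold in either direction rose from 5 to 15 against G and from 4 to 32 against PH. In keratin-high cells 0 were higher (17.5%) and 9 lower (2.54%), with a family median of -0.29 against 0.24, and 34 were lower after centring (8.08%). With cells of 3000 to 10000 UMIs alone, 39 members in place of 9 were past 1.5-fold. The share of all measured genes past 1.5-fold at this depth was not computed. The rises with depth matching are therefore not read as particular to the members. The 9 were Rpl35, Rpl22l1, Rps15a, Rps27l, Rps27a, Rpl26, Rps24, Rpl30 and Rpl39. Of these Rpl35, Rpl22l1, Rps15a and Rps27l were also among the 5 in vimentin-high cells, and Rps27a makes a fusion of ubiquitin and a small-subunit protein.

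Rpl22l1 was the member farthest from the family in keratin-high cells. It is a paralog of Rpl22, an RNA-binding large-subunit protein that is known to repress it. Rpl22l1 had 3385 CPM in G and 1332 in GPH, 2.54-fold lower (95% counting interval 2.52 to 2.56) and 1.05 log2 units below the family median. Rpl22 had 2368 and 2010 CPM, which is close to the family. The split by Tff1 gave the same picture, with 2995 and 1046 CPM in Tff1-high cells and 3556 and 1457 in the others. Of 79 members 2 lay 1.5-fold above the family median and 1 below it. Of 4800 measured genes 353 and 388 lay that far from their own median, so both member counts are smaller shares. In cells of 3000 to 10000 UMIs Rpl22l1 had a log2 ratio -1.12 from the family median, but 10 members in place of 3 then lay 1.5-fold from it. Rpl7l1, Rps15 and Rpl13a lay farther on the upper side, at 1.52, 1.20 and 1.19. How many of all genes lay that far from their own median at this depth was not computed. In vimentin-high cells it had 2260, 2087, 2902 and 1908 CPM across control, PH, G and GPH, highest in G again, and lay within 1.5-fold of the family there.

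**Figure D3:**
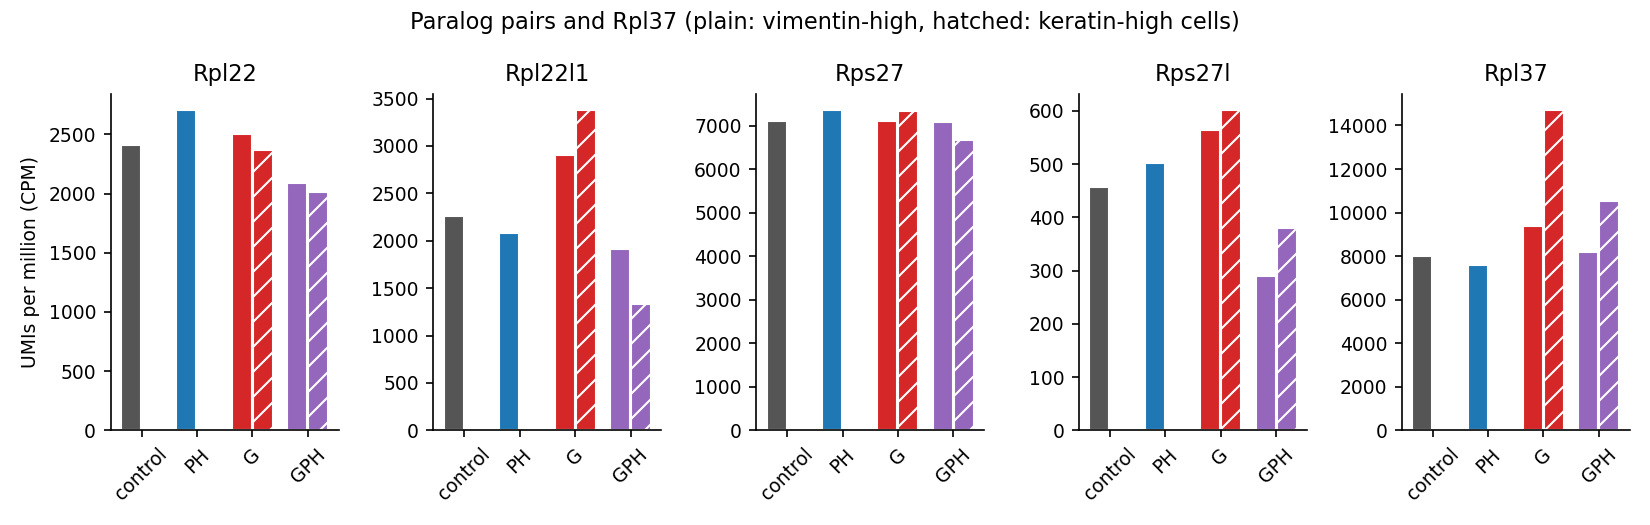
Levels (CPM, vertical axis, from 0) of Rpl22, Rpl22l1, Rps27, Rps27l and Rpl37 in vimentin-high (plain bars) and keratin-high (hatched bars) cells of each library (colour). Keratin-high cells are shown for G and GPH only. In keratin-high cells Rpl22l1 is at 3385 CPM in G and 1332 in GPH, and Rpl22 at 2368 and 2010.

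Rps27l was the member farthest below the family in vimentin-high cells of GPH. Against G it was the 1 member of 79 that lay 1.5-fold below the family median. Of all measured genes 14% lay that far below their own median, a larger share. Rps27l is thus described as a member and not as an excess over all genes. Its levels were 456, 503, 565 and 291 CPM across control, PH, G and GPH, lowest in GPH. The GPH level was 1.94-fold below that of G (1.89 to 1.998) and 1.73-fold below that of PH (1.69 to 1.77), which is 0.72 and 0.53 log2 units below the family. Its parent Rps27 had 7108, 7374, 7118 and 7096 CPM in the same order and hardly differed between libraries. In keratin-high cells Rps27l had 603 CPM in G and 380 in GPH, and Rps27 had 7342 and 6665. Rpl37, a large-subunit protein and the second highest member, separated keratin-high from vimentin-high cells. It had 14730 CPM in keratin-high and 9361 in vimentin-high cells of G, and 10513 and 8177 in GPH. It was 1.5-fold above the family between the classes in G alone, and the difference between the libraries in this respect was not tested.

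Several single members had control at the end of their range. In vimentin-high cells, PH against control gave 9 of 79 members at least 1.5-fold higher (5.81% of all measured genes) and 1 lower (6.42%), with a family median log2 ratio of 0.13 against 0.01 over all genes. G against control gave 4 higher (3.87%) and 0 lower (6.24%), with medians of 0.14 and -0.05. Both comparisons share the control library. Measured from the family median, 7 members lay 1.5-fold above and 3 below in PH, where 5.65% and 6.56% of all genes lay that far from their own median. The lower count in PH is a smaller share than that of all genes. In G it was 0 above and 2 below, against 5.12% and 4.83%, and both counts are smaller shares than these. Members, here and in the other classes, also needed a counting interval that excludes the family median, which was not asked of all genes.

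The large-subunit members of this set were Rpl23a, Rpl12, Rpl5 and Rpl13a. Rpl23a, which sits at the exit of the peptide tunnel, had 1415, 3105, 2262 and 2208 CPM across control, PH, G and GPH. It was 2.19-fold higher in PH than in control (2.18 to 2.21) and 1.60-fold higher in G (1.58 to 1.61). Rpl12, at the base of the stalk where translation factors bind, had 1951, 3864, 2916 and 2871 CPM. Every other library was thus above control, with PH highest. Rpl5, which carries 5S ribosomal RNA and can bind MDM2, had 595, 1147, 776 and 796 CPM. Its partner Rpl11 had 3068, 3291, 3297 and 2224, and Rpl23, which also binds MDM2, had 7412, 9342, 9194 and 7690. Rpl13a had 1186, 2156, 1643 and 1893 CPM. Rpl11 and Rpl23 did not share the low control level of Rpl5 to the same extent.

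The small-subunit members pointed both ways. Rps25, which is known to be needed for translation from internal ribosome entry sites, had 1151, 2316, 1833 and 1479 CPM across control, PH, G and GPH. Rps15 had 874, 1871, 1438 and 1290. Both were lowest in control and highest in PH. Rps2 ran opposite, with 7162, 4529, 5166 and 5168 CPM across control, PH, G and GPH. Rps28, the highest member of all, had 18860, 13359, 13729 and 15361, again with control apart. Rps2 was 1.58-fold lower in PH than in control (1.58 to 1.59), and Rps28 1.41-fold (1.41 to 1.41). Both differences were smaller in cells of 3000 to 10000 UMIs. Rps2 then had 5242 CPM in control and 4036 in PH, a log2 ratio of -0.38 against -0.66 without the depth limit. Rps28 had 19564 and 15199 CPM, a log2 ratio of -0.36 against -0.50. Without the depth limit Rps19bp1 had 91.7, 64.9, 78.3 and 52.5 CPM across control, PH, G and GPH. Rps6, the substrate of the S6 kinases, had 1111, 1638, 1449 and 1487, and Rps3 had 2451, 2209, 2393 and 2690.

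**Figure D4:**
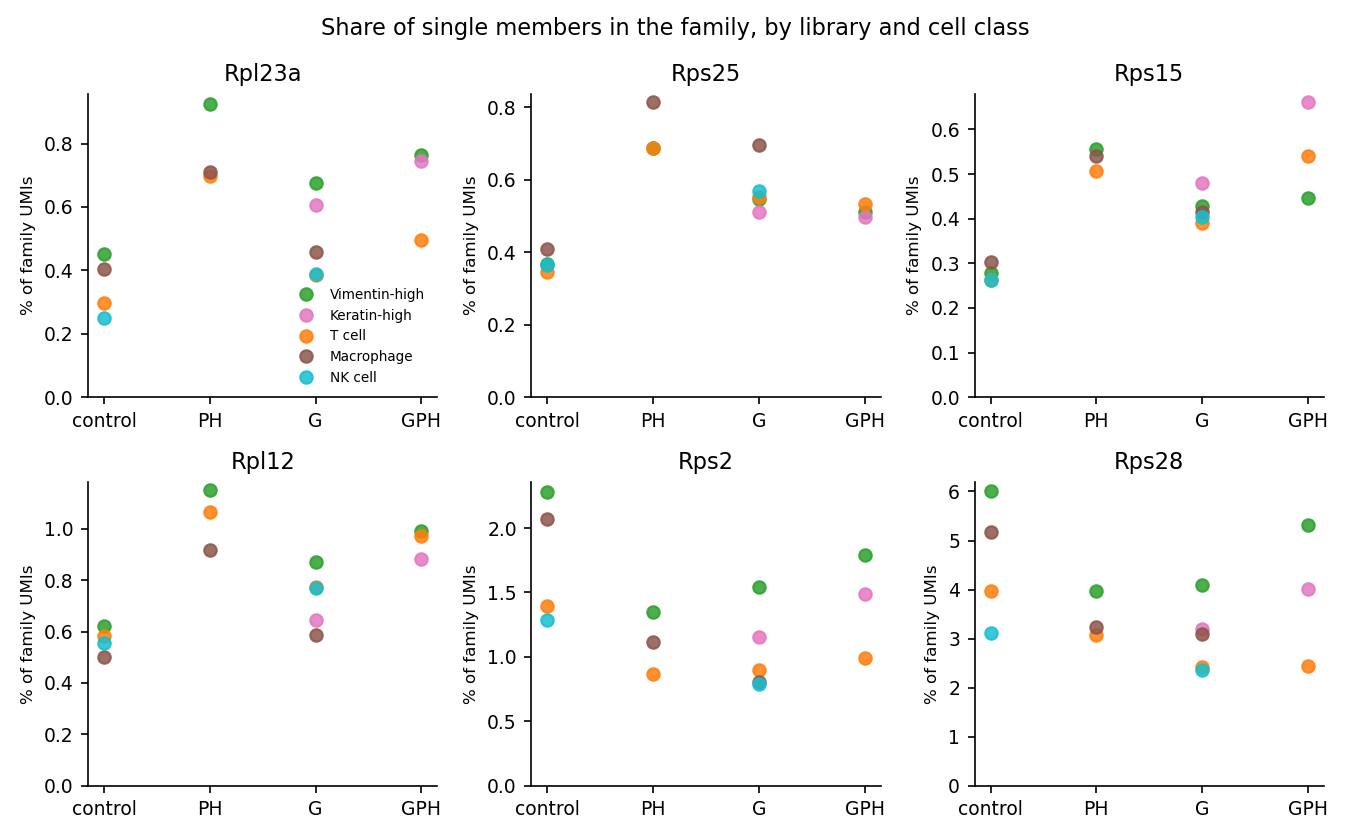
Share of the family's UMIs (percent, vertical axis, from 0) held by Rpl23a, Rps25, Rps15, Rpl12, Rps2 and Rps28 in each library (horizontal axis), with 1 dot per cell class. Keratin-high cells are shown for G and GPH, NK cells for control and G. In every class with a control dot, control has the lowest dots for the first 4 genes and the highest for Rps2 and Rps28.

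In T cells of PH against control Rpl23a, Rps25, Rps15, Rpl12, Rpl5, Rpl13a, Rps2 and Rps19bp1 again lay 1.5-fold from the family median, and Rps28 did not, at -0.37. T cells of PH against control gave 12 of 79 members higher (8.6%) and 0 lower (8.34%), with a family median of 0.16. Measured from that median 8 members lay 1.5-fold above and 2 below. Of 4893 measured genes 433 and 386 lay that far from their own median. The upper count is thus near the share of all genes and the lower one is a smaller share. Rpl23a had 899, 2341, 1315 and 1285 CPM across control, PH, G and GPH, the last over 56 cells. Rps25 had 1042, 2310, 1883 and 1384. Rps2 had 4218, 2906, 3068 and 2580, and Rps28 had 11965, 10298, 8274 and 6327. Control was again lowest for the first pair and highest for the second, but at 3000 to 10000 UMIs Rps28 had 10036 CPM in control and 9886 in PH, which did not differ beyond counting error (log2 ratio -0.022, interval -0.065 to 0.022). G against control gave 7 higher (11%) and 0 lower (10.1%), with a family median of 0.24. In NK cells G against control gave 3 higher (13.6%), Rps25, Rps15 and Rpl23a, and 1 lower (10.3%), Rps2. The counts in T and NK cells of G lay below the shares of all genes, so they show nothing particular to the members. Library preparation and treatment cannot be told apart for any of these differences.

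In macrophages PH against control gave 7 higher (14.7%) and 3 lower (7.96%), and 7 members lay 1.5-fold above and 3 below the family median (13.7% and 8.93% of all genes from theirs), Rps25 and Rps2 farthest, with 1138 and 2296 CPM for Rps25 and 5764 and 3143 for Rps2 in control and PH. G against control gave 1 higher (28.2%) and 6 lower (20.1%). The counts in macrophages of PH and G were all smaller shares than those of all genes, so they show nothing particular to the members. The 175 macrophages of control were deep, with a median of 12540 UMIs against 7711 in PH and 6008 in G, and low in the leukocyte gene Ptprc, at 83.5 CPM against 164 and 380. In cells of 3000 to 10000 UMIs, of which control had 52, 8 members lay 1.5-fold from the family in PH against control and 1 of the 10 was among them. Rpl23a then lay 0.41 and Rps25 0.39 log2 units above the family and Rps2 0.51 below it. In vimentin-high cells of this depth all 10 remained, as distances from a family median that was 0.27 there and 0.13 without the depth limit. In T cells 8 of 10 remained, all above the family. The lower members Rps2 and Rps19bp1 were then at -0.54 and -0.44 from the family median.

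**Figure D5:**
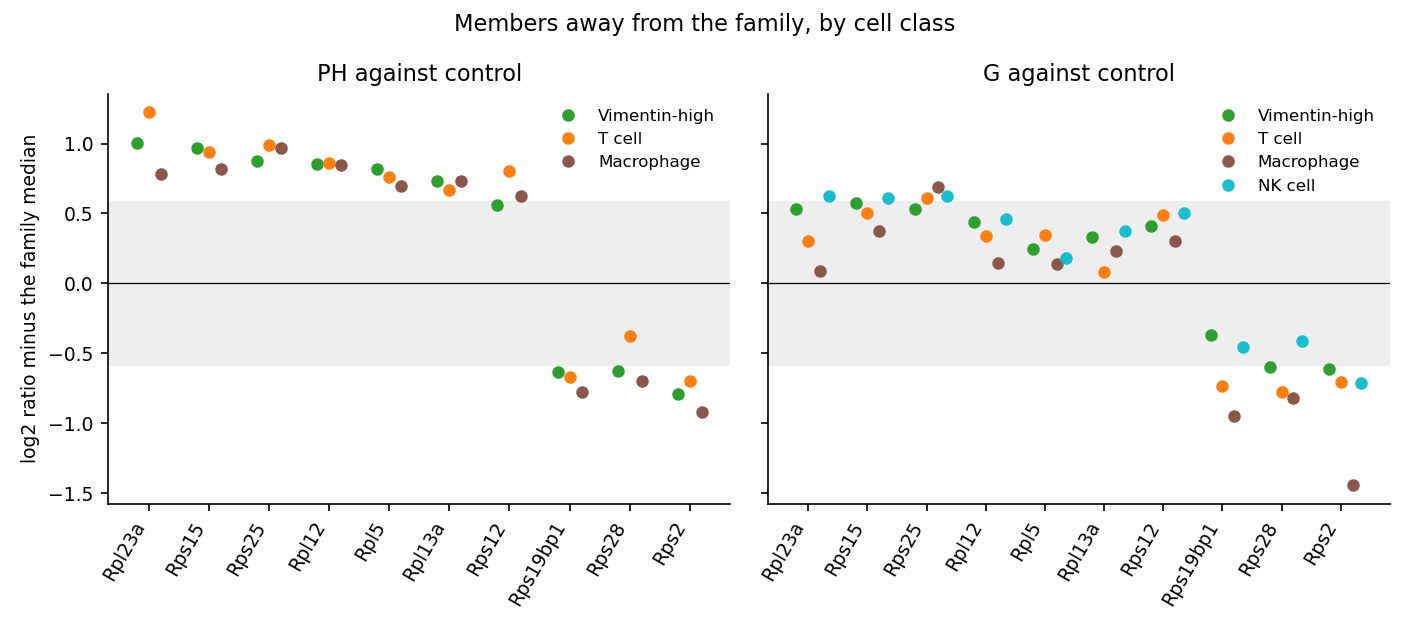
Log2 ratio of 10 members minus the family median (vertical axis) in each cell class (colour), for PH against control (left) and G against control (right). The grey band marks 1.5-fold. Rpl23a, Rps15 and Rps25 lie above the band in the 3 classes of the left panel, and Rps2 lies below it in every class of both panels.

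Ribosomal protein genes have many processed copies, and reads that fit several counted genes can be lost in counting. Among the last 400 bases of each transcript, the median share of 50-base stretches that occur in another annotated gene was 46.7% for the 7 members above the family in vimentin-high cells of PH, 52.3% for the 3 below and 68.1% for the other 69. Rpl12, Rpl5, Rpl13a and Rps19bp1 had none, while Rpl23a had 86.3% and Rps2 85.2%. Over the 79 members the rank correlation of this share with the log2 ratio was 0.12, as a description, since all points come from the same 2 libraries. The -ps symbols together held 0.00572% to 0.00963% of non-mitochondrial UMIs. The stretches were sought in all annotated genes, counted or not, so their share does not measure lost reads. Counts of members with shared stretches, such as Rpl23a and Rps2, remain uncertain to an extent that was not measured.

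In T cells the family share was 30.2% in control (482 cells), 33.5% in PH (534) and 34.2% in G (4037), which is 3.31 and 3.95 points above control. NK cells had 34.96% in control (196) and 36.6% in G (513). In macrophages the shares were 27.8%, 28.2% and 25.0% in control, PH and G. The macrophage differences turned with the cells kept. In cells of 3000 to 10000 UMIs PH was 6.91 points and G 3.82 points above control, so no direction is given for them. T cells of GPH (56 cells) had 26.0% and are given as a value.

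Other lists of the translation machinery differed in how near they lay to the family. In keratin-high cells of GPH against G, where 17.5% of all measured genes were higher and 2.54% lower, the median log2 ratio was 0.12 over 22 translation factors, with 1 higher and 0 lower. It was 0.14 over 27 ribosome biogenesis genes, with 1 higher and 1 lower, against -0.29 over the family and 0.24 over all genes. With minima of 100 CPM and 100 UMIs the biogenesis median turned to -0.21, and to -0.12 in vimentin-high cells, so no direction is given for that list. The 7 ribosome proteins named otherwise lay closer to the family, at -0.12 with 1 lower. In vimentin-high cells of GPH against G the 22 translation factors had 0.21, near the 0.23 of all genes. Mitochondrial ribosomal proteins, which serve the separate ribosome of mitochondria, had -0.32 there, with 0 of 72 higher (23.4% of all measured genes) and 19 lower (7.41%), beside -0.24 for the family. In T cells of PH against control the 7 ribosome proteins named otherwise had a median of 0.59, with 4 higher (8.6% of all measured genes), against 0.16 for the family, and ribosome biogenesis genes had 0.18. snoRNA host genes, many of which also carry TOP tracts, had -0.08 in keratin-high cells of GPH against G, with 2 of 6 higher.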

How the data were processed

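Tumour cells of 4 groups, 1 library each, were measured with 10x Genomics single-cell RNA sequencing. The authors deposited filtered matrices of UMI counts per gene and cell, made with Cell Ranger 7.0.1 per the file headers, while the submitters' processing notes give Cell Ranger 6.1 and the mm10 build. Cells with at least 500 UMIs, 300 genes and at most 20% mitochondrial UMIs were kept (11051, 16033, 14022 and 4579 in control, PH, G and GPH). A cell belonged to a lineage with 3 UMIs, 2 genes and 500 CPM of its marker list (collagens 4000 CPM), and cells of several lineages (44, 60, 637 and 0) were left out as possible doublets. The rest, with Ptprc under 100 CPM, were keratin-high at 1000 CPM of Krt19, otherwise vimentin-high at 2000 CPM of Vim. No doublet caller was run. Values of some genes are not reported here.

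Counts were summed per library and class, and classes of 50 cells were described and of 100 compared. A gene was measured with 20 CPM and 20 UMIs over both libraries. Ratios of CPM carry exact conditional binomial 95% intervals and shares exact Clopper-Pearson 95% intervals, for counting error only, since UMIs of 1 library do not measure the spread between animals. The call was 1.5-fold by size. Members named with values lay 1.5-fold from the family median with an interval that excludes it, at most 10 each way, or were paralogs, members with known roles or the 6 highest. Counts of members away from the family median used the distance and the interval. The shares of all genes beside them used the distance alone. The members and lists were chosen with earlier results of these data known. The intervals were checked on simulated counts. Alternatives covered denominator, mitochondrial limit, depth, averaging, gates, low values, scaling and cell cycle, and splits by Dcn or Dpt (100 CPM), Slc7a11 or Ereg (200 CPM), Tff1 (1000 CPM) and depth were added after the data were seen. Python 3 with numpy, scipy and pandas was used. Start windows were read from RefSeq (GRCm38.p6), and transcript sequence from GENCODE, both of the mm10 assembly.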

Additional observations from a re-analysis of the deposited data

Results flagged for a closer look

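The family share under gemcitabine against control pointed up in 3 classes and down in macrophages. G was 2.13 points above control in vimentin-high cells, 3.95 points in T cells and 1.60 points in NK cells, and -2.84 points from control in macrophages. With 1 library per group this difference between classes was not tested, and in macrophages of 3000 to 10000 UMIs the sign was the opposite (3.82 points). Cells that met no gate entered no comparison, and in GPH 46.5% of them had a family share under 10%, above the 18.2% of control.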

How the results depend on the processing

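No paired analysis was possible because each group is 1 library. Of the 120 share differences computed under alternatives, 85 moved beyond the counting interval and 32 did not, and the sign changed in 3, all in macrophages. In vimentin-high, keratin-high, T and NK cells the sign was kept under every alternative listed below. Numbers of members by fold depended most on the fold and on cell depth. In GPH against G and PH, scaling without the members or centring on all genes raised the number of lower members. Centring did so because the median of all genes was 0.10 to 0.24. Scaling without the members takes the family out of the denominator, and the family share was lower in GPH. Depth limits macrophages of control most (52 cells at matched depth). Where a cause is not named, the cause was not tested.

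Differences in family share, in points, moved as follows. With all UMIs as the denominator, PH minus control was 1.58 in vimentin-high cells, 2.69 in T cells and -0.138 in macrophages, G minus control was 1.64 in vimentin-high cells, 3.73 in T cells, 1.30 in NK cells and -2.97 in macrophages, GPH minus G was -4.37 in vimentin-high cells and -6.26 in keratin-high cells, and GPH minus PH was -4.31 in vimentin-high cells. Without Malat1, Neat1 and haemoglobin genes, PH minus control was 1.93 in vimentin-high cells, 3.07 in T cells and 0.222 in macrophages, G minus control was 1.84 in vimentin-high cells and 3.52 in T cells, GPH minus G was -3.73 in vimentin-high cells and -6.48 in keratin-high cells, and GPH minus PH was -3.82 in vimentin-high cells. As a mean over cells, PH minus control was 3.84 in vimentin-high cells, 4.23 in T cells and 3.87 in macrophages, G minus control was 1.29 in vimentin-high cells, 6.03 in T cells, 1.89 in NK cells and 0.448 in macrophages, GPH minus G was -4.28 in vimentin-high cells and -7.35 in keratin-high cells, and GPH minus PH was -6.83 in vimentin-high cells. With no mitochondrial limit, PH minus control was 2.27 in vimentin-high cells, G minus control was 2.10 in vimentin-high cells, GPH minus G was -4.95 in vimentin-high cells and -7.12 in keratin-high cells, and GPH minus PH was -5.11 in vimentin-high cells. In cells of 3000 to 10000 UMIs, PH minus control was 5.30 in vimentin-high cells, 2.37 in T cells and 6.91 in macrophages, G minus control was 2.16 in vimentin-high cells, 4.34 in T cells, 1.41 in NK cells and 3.82 in macrophages, GPH minus G was -7.27 in vimentin-high cells and -10.4 in keratin-high cells, and GPH minus PH was -10.4 in vimentin-high cells. In cells of at least 2000 UMIs, PH minus control was 2.20 in vimentin-high cells and 3.06 in T cells, G minus control was 2.16 in vimentin-high cells and 3.59 in T cells, and GPH minus G was -4.64 in vimentin-high cells. With a marker threshold of 250 CPM, PH minus control was 2.25 in vimentin-high cells and 2.81 in T cells, G minus control was 2.18 in vimentin-high cells, 4.07 in T cells, 1.997 in NK cells and -5.22 in macrophages, and GPH minus PH was -4.65 in vimentin-high cells. Without the deepest 2% of cells, PH minus control was 2.46 in vimentin-high cells, 3.47 in T cells and 0.918 in macrophages, G minus control was 2.25 in vimentin-high cells, 4.34 in T cells and -2.41 in macrophages, GPH minus G was -4.81 in vimentin-high cells and -6.75 in keratin-high cells, and GPH minus PH was -5.02 in vimentin-high cells. In cells under 200 CPM of the cycling list, PH minus control was 3.04 in vimentin-high cells, 3.49 in T cells and 0.213 in macrophages, G minus control was 1.56 in vimentin-high cells, 4.76 in T cells and -2.93 in macrophages, GPH minus G was -4.72 in vimentin-high cells and -7.16 in keratin-high cells, and GPH minus PH was -6.20 in vimentin-high cells. With core members only, G minus control was 2.03 in vimentin-high cells, GPH minus G was -4.42 in vimentin-high cells and -6.37 in keratin-high cells, and GPH minus PH was -4.62 in vimentin-high cells. With at most 10% mitochondrial UMIs, G minus control was 2.26 in vimentin-high cells and 3.87 in T cells, GPH minus G was -4.45 in vimentin-high cells and -6.45 in keratin-high cells, GPH minus PH was -4.40 in vimentin-high cells, and PH minus control was 0.451 in macrophages. With a marker threshold of 1000 CPM, G minus control was 2.10 in vimentin-high cells, 0.449 in NK cells and -1.29 in macrophages, and PH minus control was 2.38 in T cells and 0.439 in macrophages.

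Median log2 ratios of the other lists moved as follows. At matched depth of 3000 to 10000 UMIs, mitochondrial ribosomal proteins were at -0.11 in vimentin-high cells (PH against control), -0.57 in vimentin-high cells (GPH against PH), -0.37 in keratin-high cells (GPH against G), 0.0091 in T cells (PH against control), -0.18 in macrophages (PH against control) and -0.56 in macrophages (G against control), ribosome biogenesis were at 0.36 in vimentin-high cells (GPH against G) and -0.21 in macrophages (PH against control), translation factors were at 0.22 in keratin-high cells (GPH against G) and 0.12 in macrophages (G against control), and regulators were at 0.61 in keratin-high cells (GPH against G). With minima of 100 CPM and 100 UMIs, mitochondrial ribosomal proteins were at -0.062 in vimentin-high cells (G against control), -0.62 in vimentin-high cells (GPH against G), -0.56 in vimentin-high cells (GPH against PH), -0.25 in keratin-high cells (GPH against G), 0.15 in T cells (G against control) and -0.50 in macrophages (G against control), and ribosome biogenesis were at -0.12 in vimentin-high cells (GPH against G) and -0.21 in keratin-high cells (GPH against G). Scaled without the members, translation factors were at 0.020 in vimentin-high cells (GPH against PH), mitochondrial ribosomal proteins were at -0.29 in keratin-high cells (GPH against G), and ribosome biogenesis were at 0.20 in T cells (G against control).

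Numbers of members past the fold moved as follows. Among these settings the share of all measured genes was computed for the centred one alone. At 2-fold, PH against control gave 3 in vimentin-high cells, 4 in T cells and 1 in macrophages, G against control gave 0 in vimentin-high cells, 0 in T cells, 0 in NK cells and 2 in macrophages, GPH against G gave 0 in vimentin-high cells and 1 in keratin-high cells, and GPH against PH gave 0 in vimentin-high cells. In cells of matched depth, G against control gave 1 in vimentin-high cells and 14 in macrophages, GPH against G gave 15 in vimentin-high cells and 39 in keratin-high cells, GPH against PH gave 32 in vimentin-high cells, and PH against control gave 32 in macrophages. Scaled without the members, GPH against G gave 10 in vimentin-high cells and 22 in keratin-high cells, GPH against PH gave 13 in vimentin-high cells, and G against control gave 11 in T cells. Centred on the median of all genes, GPH against G gave 19 in vimentin-high cells and 34 in keratin-high cells, and GPH against PH gave 13 in vimentin-high cells. In cells under 200 CPM of the cycling list, GPH against G gave 3 in vimentin-high cells, and GPH against PH gave 8 in vimentin-high cells.

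Numbers of members away from the family median moved as follows, without the share of all measured genes, which was not computed under these settings. At 2-fold, PH against control gave 1 in vimentin-high cells, 1 in T cells and 0 in macrophages, G against control gave 0 in vimentin-high cells, 0 in T cells, 0 in NK cells and 1 in macrophages, GPH against G gave 0 in vimentin-high cells and 1 in keratin-high cells, T cells against vimentin-high gave 0 in control, 0 in PH and 0 in G, macrophages against vimentin-high gave 0 in control, 0 in PH and 1 in G, keratin-high against vimentin-high gave 0 in G, macrophages against T cells gave 1 in control, 0 in PH and 1 in G, and neutrophils against T cells gave 1 in G. With minima of 100 CPM and 100 UMIs, GPH against G gave 1 in vimentin-high cells, and G against control gave 3 in T cells. In cells of matched depth, GPH against G gave 4 in vimentin-high cells and 10 in keratin-high cells, GPH against PH gave 1 in vimentin-high cells, G against control gave 2 in T cells and 3 in macrophages, T cells against vimentin-high gave 11 in control and 1 in PH, macrophages against vimentin-high gave 21 in control, 7 in PH and 11 in G, keratin-high against vimentin-high gave 4 in G and 5 in GPH, macrophages against T cells gave 11 in control and 7 in G, and neutrophils against T cells gave 3 in G. In cells under 200 CPM of the cycling list, GPH against G gave 1 in vimentin-high cells, GPH against PH gave 1 in vimentin-high cells, and G against control gave 3 in T cells.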

Other observations

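Among 831 genes outside the family that had at least 50 CPM throughout, the 10 whose log2 CPM ran most like the family's over 17 points (a class in a library) were the following. Hspe1, a mitochondrial chaperonin, had a Pearson r of 0.907, the initiation factor subunits Eif3e and Eif3i 0.907 and 0.847, Naca, which binds nascent chains, 0.896, and the elongation factor Eef1b2 0.870. The ribosome proteins Rpsa, Rplp2 and Rplp1, which the symbol pattern does not reach, had 0.880, 0.833 and 0.828. Timm23, of the mitochondrial import channel, and Cct2, of the cytosolic chaperonin, had 0.836 and 0.826. The points share libraries and depth and are not independent, so these are descriptions.

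Mitochondrial ribosomal proteins were low in gemcitabine macrophages. Their median log2 ratio against control was -0.70, with 0 of 67 measured members 1.5-fold higher (28.2% of all measured genes) and 46 lower (20.1%), against 0.07 over all genes and -0.07 over the cytosolic family. In cells of 3000 to 10000 UMIs it was -0.56. In NK cells it was -0.27, with 1 of 64 higher (13.6%) and 18 lower (10.3%). Ribosome biogenesis genes were at -0.54 in the same macrophages, with 7 of 17 lower (20.1% of all measured genes). Rpl3l, the striated-muscle paralog of Rpl3, had 21 UMIs in the 755 neutrophils of G (15.1 CPM). In the same library it had 33 UMIs in macrophages (3.45 CPM), 2 in dendritic cells (2.11 CPM) and 2 in T cells (0.0868 CPM). This gene was picked after its values were seen.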
